A study of Mus musculus with 27 samples.

Results

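Organoids grown from the colon of control mice were compared with organoids grown from the jejunum of control mice. The libraries were chosen by their labels alone: 2 control colon organoid libraries and 4 control jejunum organoid libraries, 6 of the 27 libraries in the series. All mice were C57BL/6, an inbred strain with no transgene named in the labels. Control mice drank water for 8 weeks, and the mice of the ethanol groups received 15% ethanol for 8 weeks. The same comparison in ethanol organoids (2 colon and 4 jejunum libraries) and in control whole tissue (4 colon and 3 jejunum libraries) is given beside it. Organoids are cultures of gut epithelium that start from crypt stem cells, and the labels name the published small intestinal method of Sato and Clevers for both segments. The labels give each library of a group its own donor number, and neither the age of the mice, the culture time nor the number of passages is given in the labels.

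The jejunum is the stretch of small intestine that digests and absorbs most nutrients. Its enterocytes carry disaccharidases and peptidases on the brush border and pack fat into chylomicrons, and its crypts hold Paneth cells, which secrete alpha-defensins and lysozyme. The colon has no Paneth cells, absorbs salt and water, and is coated by mucus from many goblet cells. Along the gut the epithelium keeps a positional code of transcription factors, with GATA4 in the small intestine and posterior HOX factors in the colon, and epithelial cultures are known to retain much of that code. After injury, or in stiff or stressed culture, gut epithelium can also switch on a fetal-like programme marked by Ly6a (Sca-1), clusterin and annexin A1.

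RNA was read as 3′ tags, so a count is a tag near the transcript end and needs no length correction. Levels are given as CPM, tags of a gene as a share of the library, scaled by the TMM factors of edgeR. The colon libraries were shallow, with 1337068 and 2806471 counts, of which 38.8% and 27.4% fell on Rn45s, the ribosomal RNA precursor; the jejunum libraries held 5083997 to 7090123 counts, with 19.7% to 23.4% on Rn45s. The colon libraries also differed from each other far more than the jejunum libraries did: Spearman's rho over genes was 0.676 between the colon libraries and 0.979 to 0.987 among the jejunum libraries. The biological coefficient of variation, the spread beyond counting noise, was 1.3 in control colon and 0.189 in control jejunum over genes averaging 5 counts or more. Over genes averaging 500 counts or more it was 0.373 and 0.166. Many colon values were 0 where the other colon library was not: of genes at 20 to 50 CPM in colon library 1, 15.1% had no count in colon library 2, and in the opposite direction the share was 5.98%. Above 100 CPM the shares were 0.482% and 0.0772%, and among jejunum libraries no such gene was at 0 in any pair. A colon value of 0 for a gene under about 50 CPM is therefore a weak measurement, and a bound worded "at least" below (from 3 counts over the group) covers counting error only. In these bulk cultures fewer cells of a type and less RNA per cell cannot be told apart.

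Of 12922 genes tested, 49.8% were called (6436 genes, edgeR adjusted p under 0.05), 3069 higher and 3367 lower in colon (23.8% and 26.1%). That fit pools the spread of all 12 organoid libraries. A limma-voom fit that gave the control and ethanol colon libraries together a spread apart from jejunum called 2538 genes (19.6%), 1529 higher (11.8%) and 1009 lower (7.81%). Limma below means this fit. Called in both fits, with the same direction, were 2516 genes (19.5%), 1513 higher (11.7%) and 1003 lower (7.76%), and "both fits" below refers to these. An alternative chosen after seeing the data, limma-voom with a spread for each organoid group, called 1032 genes, 854 higher and 178 lower. The library ranges of colon and jejunum did not overlap for 54.7% of genes. Among the genes that edgeR called lower, 853 of 3367 had no count in either colon library. Among those it called higher, 502 of 3069 had no count in any jejunum library. The median log2 difference over all genes was −0.10.

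Epithelial markers were present in all 6 libraries. The keratin Krt8 read 459 and 465 CPM in colon and 340 to 455 in jejunum, the intestinal cadherin Cdh17 read 851 and 233 against 554 to 677, and the brush-border bundler Vil1 131 and 220 against 216 to 320. None of these 3 passed edgeR's test (adjusted p = 0.37, 0.68 and 0.12). Epcam, an epithelial adhesion molecule, was lower in colon (347 and 419 CPM against 832 to 944; log2 difference −1.21, SE 0.16, edgeR adjusted p = 9.9e-05). Cdh1 (E-cadherin) read 936 and 1384 CPM against 605 to 689 and was called higher by edgeR (adjusted p = 0.0037) but not by limma (adjusted p = 0.11).

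**Figure D1:**
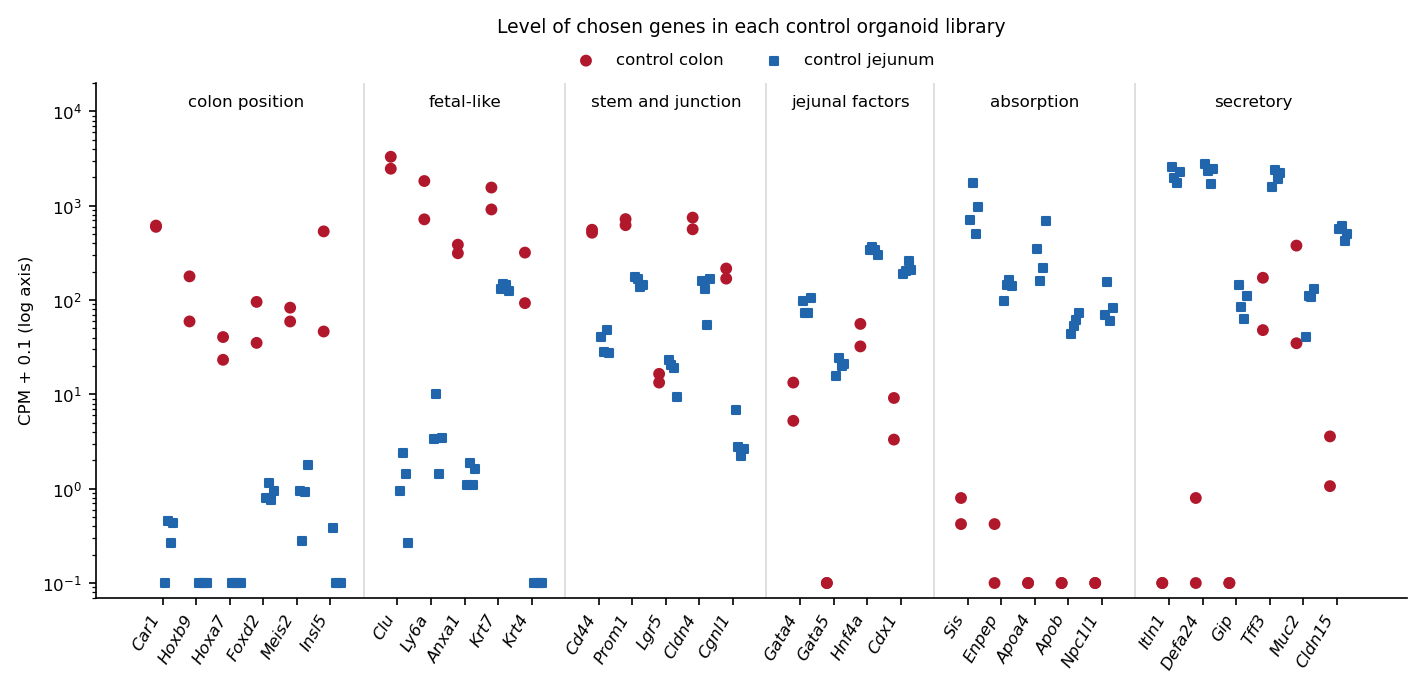
CPM plus 0.1, on a log axis, of 31 genes in the 2 control colon libraries (red circles) and the 4 control jejunum libraries (blue squares); every point is 1 library and points at 0.1 had no count. Car1, Clu and Cd44 sat close together in both colon libraries and far above jejunum, while Insl5 and Muc2 lay about a decade apart between the colon libraries.

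The colon label was checked against position markers, which did not all point the same way. Car1, the carbonic anhydrase of colonocytes (chromosome 3, 14766216 to 14808368, minus strand, protein-coding, GENCODE vM21 on GRCm38), read 597 and 616 CPM in colon and 0, 0.353, 0.164 and 0.337 CPM in the jejunum libraries. The groups did not overlap, and the log2 difference was 11.37 (SE 0.39, edgeR adjusted p = 1.7e-08; limma adjusted p = 4.3e-09). Car2, another carbonic anhydrase, was also higher (256 and 37.6 CPM against 0.657 to 4.51; log2 difference 6.14, SE 0.74). Hoxb13, which marks the most distal colon, had 21.6 CPM in colon library 2 and none in library 1, too few counts to be tested. Hoxd10 had no count in any of the 6 libraries.

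Of 39 Hox genes, the positional code itself, 18 were tested. By edgeR 15 were called higher (83.3%, against 23.8% of all genes), 10 of them in both fits (55.6%, against 11.7%). The median log2 difference was 7.27, or 5.57 with genes at 0 in a group set at their bound. Hoxb9 read 178 and 59.2 CPM in colon and had no count in the 4 jejunum libraries, at least 980-fold higher (edgeR adjusted p = 1.1e-05). Hoxa7 read 23.1 and 40.4 CPM against none, at least 262-fold higher. Hoxc8 read 6.11 and 12.5 CPM against none, at least 77.0-fold higher. These genes were thus present in both colon libraries and absent from the jejunum counts. Hoxb6 was present in colon library 1 alone (85.2 and 0 CPM against 0 to 0.353), so that without library 1 the direction turned (log2 difference −2.52, edgeR adjusted p = 0.71). The member that went the other way was the anterior gene Hoxa3, at 0 and 0 CPM in colon and 3.36 to 5.59 CPM in jejunum, a range in which a colon value of 0 is weak.

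Among 26 tested segment transcription factors, 7 were called higher and 12 lower (26.9% and 46.2%, against 23.8% and 26.1% of all genes). In both fits 5 were higher and 7 lower. Foxd2, a forkhead factor, read 35.0 and 95.5 CPM in colon and 0.657 to 1.06 in jejunum (log2 difference 6.27, SE 0.57, edgeR adjusted p = 8.4e-06). Meis2, a HOX cofactor, read 59.2 and 82.9 CPM against 0.177 to 1.69 (6.28, SE 0.60). Onecut2, known chiefly from the proximal gut and liver, was the most abundant of the higher factors, at 678 and 938 CPM against 9.36 to 63.0 (4.82, SE 0.70, edgeR adjusted p = 2.0e-04). In control whole tissue Onecut2 went the opposite way, with a mean of 0.381 CPM in colon and 8.46 in jejunum (log2 difference −4.21, edgeR adjusted p = 0.0023).

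The factors of the small intestinal and general intestinal programme were lower in colon cultures. Gata4, the jejunal identity factor, read 5.14 and 13.2 CPM in colon and 72.1 to 105 in jejunum (log2 difference −3.35, SE 0.49, edgeR adjusted p = 2.0e-04; limma adjusted p = 0.076). Gata5 had no count in colon and 15.7 to 24.4 CPM in jejunum, at least 30.6-fold lower. Gata6, which the colon also expresses, read 32.5 and 43.2 CPM against 79.0 to 96.0 (−1.18, SE 0.32, edgeR adjusted p = 0.0092; limma adjusted p = 0.11). Factors shared by both segments were called lower as well. Hnf4a, an enterocyte nuclear receptor, read 32.2 and 55.7 CPM in colon and 298 to 367 in jejunum (−2.95, SE 0.25, edgeR adjusted p = 5.1e-06). The intestinal homeobox factor Cdx1 read 3.22 and 9.06 CPM against 190 to 259 (−5.29, SE 0.42), and Cdx2 read 54.7 and 58.5 against 151 to 205 (−1.70, SE 0.19). In control tissue Cdx1 and Cdx2 were higher in colon (log2 differences 1.94 and 1.42, edgeR adjusted p = 4.4e-06 and 9.5e-04).

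Colonocyte genes did not move as a group. Of 22 tested colonocyte markers 8 were called higher and 6 lower by edgeR (36.4% and 27.3%, against 23.8% and 26.1% of all genes). In both fits 2 were higher and none lower, and the median log2 difference was 0.06. In control tissue 15 of 25 were higher and 2 lower. Several members were unequal between the colon libraries, some higher in library 2 and others, such as the surface protein gene Tmigd1 (43.4 and 14.6 CPM), higher in library 1. Aqp8, a colonic water channel, read 0 and 242 CPM in colon against 0 to 2.19 in jejunum, and its log2 difference of 7.16 turned to −5.06 without library 2. Car4, of the colonocyte apical membrane, read 0 and 34.1 CPM against 0.141 to 3.29, and its difference of 3.61 turned to −5.69 without library 2. Lypd8, which keeps flagellated bacteria off the colon surface, read 85.2 and 495 CPM against 485 to 832. The chloride exchanger Slc26a3 read 3.86 and 97.5 CPM against 105 to 181. Neither Lypd8 nor Slc26a3 passed edgeR's test with both libraries (adjusted p = 0.094 and 0.14), and without library 2 both were lower (edgeR adjusted p = 1.3e-05 and 1.4e-05). Guca2a, the guanylin precursor, was lower in both colon libraries (38.3 and 59.9 CPM against 134 to 458; −2.56, SE 0.46, edgeR adjusted p = 8.3e-04; limma adjusted p = 0.29).

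Salt and water transport genes were called higher in 7 of 21 cases and lower in 8 (33.3% and 38.1%, against 23.8% and 26.1% of all genes). In both fits 4 were higher and 4 lower (19% each, against 11.7% and 7.76%). Higher in both fits were Scnn1a, Atp12a, Sgk1 and Car2, and lower in both fits were the cotransporter gene Slc12a2, the chloride channel gene Cftr, the sodium pump subunit gene Atp1b1 and Hsd11b2, whose enzyme inactivates glucocorticoids. Among colonocyte markers Saa1 was higher in both fits, next to Car1. Saa1, a serum amyloid that colon epithelium makes, read 9.65 and 44.6 CPM against 0 to 1.06 (log2 difference 6.39, SE 1.02). Scnn1a, the alpha subunit of the epithelial sodium channel, read 157 and 27.2 CPM against 3.10 to 8.77 (4.13, SE 0.59). Its partner Scnn1b had 1.93 CPM in colon library 1 and none in the others and could not be tested. Atp1b1 read 148 and 125 CPM against 684 to 1129 (−2.88, SE 0.29, edgeR adjusted p = 1.6e-05), and Slc12a2 254 and 183 CPM against 425 to 549 (−1.14, SE 0.21). Cftr had no count in colon library 2 (46.6 and 0 CPM against 112 to 131).

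Digestion and absorption genes of the small intestine were low in colon cultures. Of 19 tested brush-border enzymes 13 were called lower and none higher by edgeR (68.4% lower, against 26.1% of all genes). In both fits only 2 were lower (10.5%, against 7.76% of all genes). The median log2 difference was −3.44. Sis (sucrase-isomaltase, the sucrose-splitting enzyme; chromosome 3, 72888557 to 72967863, minus strand) read 0.322 and 0.697 CPM in colon, 2 counts in all, and 706, 1762, 500 and 972 CPM in the jejunum libraries. Jejunum exceeded colon 2239-fold, with a counting interval from 620-fold to 18489-fold. Sis was called by edgeR (adjusted p = 2.4e-05) but not by limma (adjusted p = 0.28). Enpep, a glutamyl aminopeptidase, read 0.322 and 0 CPM against 98.7 to 163 (edgeR adjusted p = 8.3e-07; limma adjusted p = 0.020). The trehalase gene Treh had no count in colon and 15.5 to 32.1 CPM in jejunum, at least 36.8-fold lower (limma adjusted p = 0.072). Anpep, an aminopeptidase, read 6.11 and 0 CPM against 32.7 to 49.6 (−3.37, SE 0.65, limma adjusted p = 0.18). Lct (lactase) was near 0 everywhere, at 1.61 and 0 CPM against 1.97 to 9.72, and did not pass the test (edgeR adjusted p = 0.076), whereas control jejunum tissue had a mean of 2738 CPM.

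The RefSeq promoter table (GRCm38.p6) gives the bases before the start of genes. The apolipoprotein genes Apoa4 and Apob, with no count in colon cultures, and Enpep were searched for motifs. In these cultures Hnf4a and the GATA factors were also lower. Apob and Enpep held no match to any motif searched, and Apoa4, which did, is shown. The 250 bases before its start in that table lie at chr9:46240594-46240843 (plus strand). GENCODE vM21 starts the gene at 46240696, so part of the window is inside the gene there. Capitals mark matches, on either strand, to the HNF4 core CAAAGT, the site of GATA factors AGATAA, the AP-1 site TGANTCA or the TEAD site GGAATG, and no matches overlap.
Apoa4: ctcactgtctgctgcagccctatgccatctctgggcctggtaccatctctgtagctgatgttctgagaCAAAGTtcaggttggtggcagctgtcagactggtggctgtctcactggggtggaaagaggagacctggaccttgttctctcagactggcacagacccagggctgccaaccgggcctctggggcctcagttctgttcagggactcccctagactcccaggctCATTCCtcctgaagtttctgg
Apoa4 holds the HNF4 core and, on the opposite strand, the TEAD letters. Of 9571 tested genes with a promoter in the table, 11% held the HNF4 core and 6.10% the GATA letters in a window of that length. Among 754 genes lower in both fits the shares were 13.7% and 8.09%, and among 1071 genes higher in both fits 11.9% and 5.42%. These are counts of letters, with no test, and a match is not a binding site.

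Of 34 tested nutrient transporters 19 were called lower and 1 higher by edgeR (55.9% and 2.94%, against 26.1% and 23.8% of all genes). In both fits 6 were lower and 1 higher (17.6% and 2.94%, against 7.76% and 11.7%). Slc5a1 (SGLT1, sodium-glucose uptake) read 2.57 and 11.8 CPM in colon and 259 to 1006 in jejunum (log2 difference −6.82, SE 0.84, edgeR adjusted p = 6.1e-05; limma adjusted p = 0.34). The sugar transporters Slc2a2 (GLUT2) and Slc2a5 (GLUT5) had no count in colon and 12 to 63.4 and 30.1 to 54.5 CPM in jejunum. They were at least 63.7-fold and 63.6-fold lower, and neither passed limma's test (adjusted p = 0.50 and 0.13). Amn, a subunit of the receptor for vitamin B12 with intrinsic factor, had no count in colon and 44.0 to 70.7 CPM in jejunum, at least 80.4-fold lower. The peptide transporter Slc15a1 was low in both cultures (0.965 and 0 CPM against 2.96 to 4.6; edgeR adjusted p = 0.037), with a mean of 1396 CPM in control jejunum tissue. The exception was the zinc importer Slc39a4, higher in colon at 179 and 377 CPM against 27.4 to 48.5 (2.86, SE 0.33, edgeR adjusted p = 4.2e-05).

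Fat absorption showed the same direction, with 22 of 30 genes called lower and 2 higher by edgeR (73.3% and 6.67%, against 26.1% and 23.8% of all genes). In both fits 8 were lower and none higher (26.7% lower, against 7.76%). The median was −3.91. Apoa4, a chylomicron apolipoprotein, had no count in colon and 346, 159, 221 and 696 CPM in jejunum, at least 538-fold lower. Apob, the structural protein of chylomicrons, had none against 43.6 to 72.9 CPM, at least 87.3-fold lower. Npc1l1, the cholesterol uptake protein, had none against 60.3 to 154 CPM, at least 138-fold lower. Fabp1, a fatty acid binding protein, had 1 count in colon and 390 to 2980 CPM in jejunum. Fabp2 (intestinal fatty acid binding protein) read 9.65 and 32.0 CPM against 210 to 685 (−4.62, SE 0.64), and Apoa1 read 4.18 and 6.27 against 234 to 568 (−6.35, SE 0.52). Creb3l3, a factor that drives apolipoprotein genes, had no count against 75.1 to 210 CPM, at least 183-fold lower. Of Apoa4, Apob, Npc1l1, Fabp1, Fabp2, Apoa1 and Creb3l3, Apob passed limma's test (adjusted p = 0.027) and the others had adjusted p from 0.081 to 0.53.

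Bile acid genes split. Nr1h4 (FXR, the bile acid sensor) read 0 and 9.06 CPM against 28.6 to 48.4 (log2 difference −3.42, SE 0.81, edgeR adjusted p = 0.0046; limma adjusted p = 0.048). Its target Slc51b, 1 subunit of the basolateral bile acid exporter, had no count against 6.08 to 11.8 CPM, and Slc51a, the other subunit, read 0 and 5.57 against 30.6 to 75.3. The apical exporter Abcc2 read 0 and 17.4 CPM against 78.4 to 95 (−3.62, SE 0.89), while the basolateral exporter Abcc3 was higher (175 and 85 CPM against 45.1 to 56.9; 1.43, SE 0.24, edgeR adjusted p = 5.4e-04). The ileal genes Slc10a2 (6.43 and 0 CPM against 0 to 5.83) and Fabp6 (0 and 0 CPM against 0.844 to 16.4) did not pass the test (edgeR adjusted p = 0.59 and 0.057).

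Among detoxification enzymes 43 of 56 were called lower and 2 higher by edgeR (76.8% and 3.57%, against 26.1% and 23.8% of all genes). In both fits 18 were lower and 1 higher (32.1% and 1.79%, against 7.76% and 11.7%). The median was −3.45. The carboxylesterase Ces1f had no count in colon and 82.7 to 158 CPM in jejunum, at least 176-fold lower. The cytochromes Cyp2b10 (none against 61.9 to 181 CPM) and Cyp3a11 (none against 21.2 to 51.3 CPM) were at least 157-fold and 53.3-fold lower. Neither cytochrome passed limma's test (adjusted p = 0.22 and 0.35). In control tissue 17 of 56 were higher and 20 lower in colon. Cyp2c55, a cytochrome of the colon, read 22.5 and 82.9 CPM against 25.1 to 75.3 and did not pass the test (edgeR adjusted p = 0.78), against 2101 and 169 CPM on average in colon and jejunum tissue. The 2 higher genes were Cyp1b1, present in colon library 1 alone (45 and 0 CPM against 0 to 0.986), and Ahr, its xenobiotic receptor (56.9 and 70.4 CPM against 8.27 to 14.1; 2.47, SE 0.45, edgeR adjusted p = 8.9e-04). Of ketogenesis and fatty acid oxidation genes 22 of 34 were called lower and 1 higher by edgeR (64.7% and 2.94%, against 26.1% and 23.8% of all genes).

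Paneth cell genes were low in colon cultures. Of 33 tested, 25 were called lower and 1 higher by edgeR (75.8% and 3.03%, against 26.1% and 23.8% of all genes). In both fits 6 were lower (18.2%, against 7.76%). The median log2 difference was −8.41 (−5.94 with genes at 0 in a group at their bound). Their summed level was 355 and 303 CPM in the colon libraries and 15872 to 25901 CPM in the jejunum libraries. Itln1 (intelectin, a lectin of Paneth and goblet cells; chromosome 1, 171518122 to 171535294, minus strand) had no count in colon and 2604, 1981, 1753 and 2290 CPM in jejunum, at least 3268-fold lower. The alpha-defensin Defa24 had 1 count in colon and 1695 to 2744 CPM in jejunum (edgeR adjusted p = 1.7e-07; limma adjusted p = 0.0029). Defa3 read 0.643 and 2.09 CPM against 2802 to 5163 (−11.69, SE 0.67). Defa5, Defa17, Defa21 and, from outside the list, the predicted gene Gm10104 were likewise under 5 CPM in colon and between 570 and 4913 CPM in jejunum. Alpha-defensin genes are near-identical copies, so the split of tags among them is uncertain. How tags that match several copies were counted is not stated. Lyz1 (Paneth lysozyme) was lower but present in colon, at 75.6 and 46.7 CPM against 674 to 1588 (−4.11, SE 0.74, edgeR adjusted p = 7.8e-04; limma adjusted p = 0.15). The matrix protease Mmp7, which activates defensins, did not pass the test (9.32 and 25.8 CPM against 15.9 to 37.8; edgeR adjusted p = 0.51). The higher member was Lyz2, the myeloid lysozyme, at 25.1 and 0 CPM against 0.177 to 1.01. Outside the list, the galectin Lgals2 (3.86 and 4.88 CPM against 1695 to 2073; −8.79, SE 0.68) and Ccl25, the small intestinal homing chemokine (1 count against 338 to 494 CPM), had gaps of the same order.

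Goblet cell genes were called lower more than higher. Of 44 tested 6 were called higher and 21 lower (13.6% and 47.7%, against 23.8% and 26.1% of all genes), 5 and 14 in both fits, with a median of −1.53; in control tissue 22 of 46 were higher and 2 lower in colon. Muc2, the main gel-forming mucin, read 34.7 and 378 CPM in colon and 40.5 to 130 in jejunum, so the groups overlapped, and it did not pass the test (log2 difference 1.07, SE 0.64, edgeR adjusted p = 0.18). Without library 2 it was lower (−1.48, edgeR adjusted p = 0.034). Zg16 (63.7 and 293 CPM against 114 to 231), Clca3 (the older symbol of goblet Clca1; 8.04 and 121 against 47.0 to 124) and Reg4 (25.7 and 304 against 271 to 771) did not pass either. Tff3, the trefoil peptide of goblet cells, was low in both colon libraries (47.9 and 172 CPM against 1572 to 2408; −4.23, SE 0.47, edgeR adjusted p = 2.9e-05). Klk1, a kallikrein, had no count in colon cultures and 53.7 to 84.3 CPM in jejunum, at least 105-fold lower, whereas colon tissue had a mean of 391 CPM and jejunum tissue 3.80. The member with the largest rise was Muc1, a membrane mucin, at 50.5 and 131 CPM against 0 to 0.177.

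Of 40 enteroendocrine genes 7 were called higher and 16 lower by edgeR (17.5% and 40% against 23.8% and 26.1% of all genes). In both fits 5 were higher, near the share of all genes (12.5% against 11.7%), and 1 was lower (2.5% against 7.76%). The larger share of lower calls was thus seen by edgeR only. Insl5, the insulin-like peptide of colonic L cells, read 46.3 and 534 CPM in colon and 0.282, 0, 0 and 0 CPM in jejunum, where it had 2 counts in all (edgeR adjusted p = 7.3e-05; limma adjusted p = 7.0e-07). Gip, of upper intestinal K cells, had no count in colon and 62.6 to 143 CPM in jejunum, at least 151-fold lower. Ghrl (ghrelin) had none against 13.6 to 22.1 CPM, and Sst (somatostatin) none against 15.4 to 43.0, at least 27.7-fold and 48.8-fold lower. Ghrl passed limma's test (adjusted p = 0.025), while Gip and Sst did not (adjusted p = 0.087 and 0.15). Hormones of both segments depended on the library. Pyy read 0.643 and 670 CPM in colon against 1.69 to 26.1 in jejunum, and Gcg (proglucagon) 44.0 and 289 against 91.0 to 194. Chga, a granule protein of all endocrine cells, read 47.3 and 364 CPM against 26.1 to 38.1 (2.63, SE 0.52, edgeR adjusted p = 0.0014), with 0.53 without library 2 (edgeR adjusted p = 0.11). Piezo2, a mechanosensitive channel of endocrine cells, was at 14.1 and 9.06 CPM against 0 to 0.177.

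Tuft cell genes gave 5 higher and 6 lower calls among 17 tested (29.4% and 35.3%, against 23.8% and 26.1% of all genes). In both fits 3 were higher and 1 lower (17.6% and 5.88%, against 11.7% and 7.76%). Dclk1, a kinase that marks tuft cells, read 60.8 and 81.5 CPM in colon against 2.63 to 5.65 (log2 difference 4.07, SE 0.53, edgeR adjusted p = 9.2e-05). Cwh43 read 38.3 and 43.2 CPM against 0.169 to 0.846 (6.33, SE 0.52). Trpm5, the tuft cell cation channel, had no count in colon and 0.822 to 2.83 CPM in jejunum, and was called lower by edgeR (adjusted p = 0.042) but not by limma (adjusted p = 0.26).

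**Figure D2:**
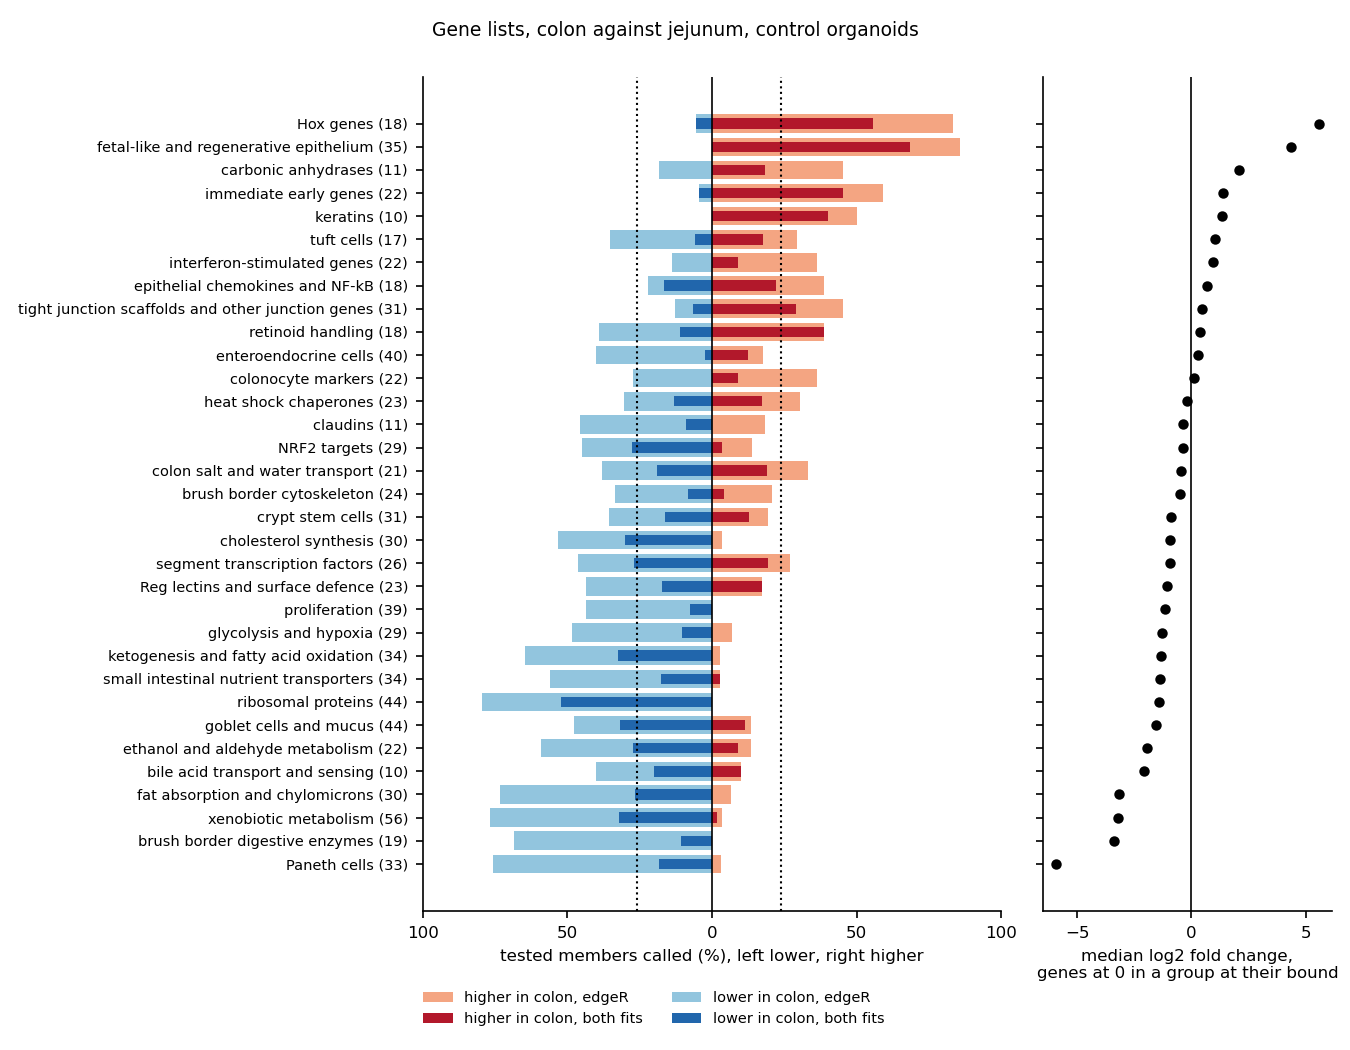
For each of 33 epithelial gene lists (number of tested members in brackets), the share of members called lower (left) or higher (right) in colon by edgeR (pale) and in both fits (dark), and at right the median log2 difference with genes at 0 in a group at their bound; dotted lines mark the shares over all genes, 26.1% lower and 23.8% higher. Hox and fetal-like genes stood at the top and Paneth, digestive enzyme, xenobiotic and fat absorption genes at the bottom.

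Genes of fetal-like and regenerating epithelium were high in colon cultures. Of 35 tested, 30 were called higher and none lower by edgeR (85.7% higher, against 23.8% of all genes). In both fits 24 were higher (68.6%, against 11.7%). The median log2 difference was 4.36. The summed level of these genes was 32846 and 25672 CPM in the colon libraries and 2557 to 2961 in jejunum. A large part of it was S100a6 (12767 and 8498 CPM against 326 to 346). Ccnd1 added 4301 and 1145 CPM in colon. Clu (clusterin, a secreted chaperone that marks regenerative cells; chromosome 14, 65968483 to 65981547, plus strand) read 2468 and 3303 CPM in colon and 0.846, 2.30, 1.31 and 0.169 CPM in jejunum (log2 difference 11.27, SE 0.96, edgeR adjusted p = 5.7e-06; limma adjusted p = 7.2e-05). Ly6a (Sca-1) read 1827 and 717 CPM against 3.24, 9.89, 1.31 and 3.37 (8.17, SE 0.63, edgeR adjusted p = 2.9e-06). Anxa1 (annexin A1) read 313 and 386 CPM against 0.986 to 1.77 (8.04, SE 0.36, edgeR adjusted p = 1.0e-07). Ly6c1, a relative of Ly6a, read 443 and 130 CPM in colon and had no count in jejunum, at least 2368-fold higher. Wnt7b, a Wnt ligand, read 315 and 408 CPM against 1 count in jejunum. Clu, Anxa1 and Wnt7b were within 1.5 times of each other in the colon libraries, and Ly6a and Ly6c1 were higher in library 1.

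Others of the widest gaps were Ctgf, a YAP target (639 and 849 CPM against 0.506 to 0.822; log2 difference 10.20, SE 0.80), Wfdc2, a protease inhibitor (601 and 320 CPM against 0 to 0.530; 10.54, SE 0.63), and Msln (mesothelin, 743 and 240 CPM against 0 to 0.564; 10.85, SE 0.82). Gabrp, a GABA receptor subunit, read 697 and 302 CPM against 2 counts in jejunum, and Anxa8 read 147 and 205 CPM against 2 counts. Bicc1, an RNA-binding protein, read 116 and 166 CPM against none, at least 1162-fold higher. In control tissue several of these were near 0 in both segments: Wnt7b had no count there, and Msln means of 0.0369 and 0.169 CPM in colon and jejunum, Gabrp 0.427 and 0.

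Of 10 tested keratin genes, of simple and stratified epithelium alike, 5 were called higher by edgeR (50%, against 23.8% of all genes). In both fits 4 were higher (40%, against 11.7%), and none was lower in either. The stratified keratins Krt5, Krt13, Krt14 and Krt16 had no count in any of the 6 libraries. Krt7 read 1558 and 913 CPM in colon and 124 to 148 in jejunum (log2 difference 3.17, SE 0.19, edgeR adjusted p = 5.0e-07). Krt4 (318 and 92.7 CPM) and Krt6a (10.9 and 18.8 CPM) had no count in jejunum, at least 1696-fold and 123-fold higher. Krt18, the partner of Krt8, read 653 and 1001 CPM against 240 to 284 (1.68, SE 0.20), while Krt20, of differentiated surface cells, read 69.1 and 307 against 92.2 to 174 and did not pass (edgeR adjusted p = 0.41). Anxa1 and Krt7 are shown with their RefSeq promoters because both were high in both colon libraries; the 250 bases lie at chr19:20390672-20390921 (minus strand) and chr15:101412153-101412402 (plus strand), with capitals as above. GENCODE vM21 places these windows inside the genes, since Anxa1 begins there at 20390944 (minus strand) and Krt7 at 101411043.
Anxa1: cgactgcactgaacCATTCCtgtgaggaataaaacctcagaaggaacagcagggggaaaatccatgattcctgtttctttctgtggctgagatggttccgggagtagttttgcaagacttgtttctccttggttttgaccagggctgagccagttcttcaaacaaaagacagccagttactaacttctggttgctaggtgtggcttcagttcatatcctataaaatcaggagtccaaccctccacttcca
Krt7: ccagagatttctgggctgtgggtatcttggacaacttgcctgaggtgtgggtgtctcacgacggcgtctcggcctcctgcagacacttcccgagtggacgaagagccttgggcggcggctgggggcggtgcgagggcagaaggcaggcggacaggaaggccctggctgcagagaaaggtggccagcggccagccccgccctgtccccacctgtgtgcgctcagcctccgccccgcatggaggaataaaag
Anxa1 holds the TEAD letters once on the opposite strand, and Krt7 holds none of the 4 motifs. The TEAD letters were in 10.8% of tested promoters, 13.4% of those higher and 10.2% of those lower in both fits. The AP-1 letters were in 4.6%, 6.07% and 5.70%.

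Retinoid genes changed in both directions, 7 of 18 higher and 7 lower (38.9% each, against 23.8% and 26.1% of all genes). Stra6, the receptor for retinol-binding protein, read 25.7 and 61.3 CPM against none, at least 359-fold higher. Aldh1a3, a retinoic acid synthase, read 8.36 and 27.9 CPM against 3 counts in jejunum. The retinoic acid receptor Rarg, the hydroxylase Cyp26b1 and the dehydrogenase Rdh10 were also called higher, as was Rarb, present in colon library 1 alone (2.25 and 0 CPM against none; edgeR adjusted p = 0.046). The lower ones included enterocyte genes: Rbp2, the carrier for dietary retinol, had none against 19.4 to 119 CPM (at least 102-fold lower), and the dehydrogenase Rdh7 none against 20.4 to 35.4 CPM (at least 42.8-fold lower). Rdh7 passed limma's test (adjusted p = 0.023) and Rbp2 did not (adjusted p = 0.38). Aldh1a1 was unequal between colon libraries, at 679 and 39.0 CPM, with 185 to 521 CPM in jejunum.

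Ethanol and aldehyde metabolism genes were called lower in 13 of 22 cases and higher in 3 by edgeR (59.1% and 13.6%, against 26.1% and 23.8% of all genes). In both fits 6 were lower and 2 higher (27.3% and 9.09%, against 7.76% and 11.7%). The list included Adh1, an alcohol dehydrogenase, at 11.6 and 109 CPM against 349 to 1148. Its log2 difference was −3.52 (SE 0.80, edgeR adjusted p = 0.0037, limma adjusted p = 0.21). Aldh1b1, a mitochondrial aldehyde dehydrogenase of crypt cells, read 36.0 and 0 CPM against 1661 to 2169 (−6.57, SE 0.91, edgeR adjusted p = 1.3e-04; limma adjusted p = 0.0014).

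Crypt stem cell genes did not share a direction. Of 31 tested, 6 were called higher and 11 lower (19.4% and 35.5%, against 23.8% and 26.1% of all genes). Lgr5, the Wnt co-receptor of crypt base stem cells, was present in every library (16.4 and 13.2 CPM in colon, 9.28 to 22.8 in jejunum) and did not pass the test (log2 difference −0.25, SE 0.61, edgeR adjusted p = 0.75). Smoc2, another crypt base gene, read 0 and 6.27 CPM against 140 to 210 (−6.23, SE 0.82, edgeR adjusted p = 9.6e-05; limma adjusted p = 0.0092). The stem cell factor Ascl2 read 6.11 and 0 CPM against 18.2 to 32.4 (−2.87, SE 0.79), and Olfm4 read 0 and 27.2 CPM against 19.3 to 43.4, with no call (edgeR adjusted p = 0.26). The Wnt target Axin2 read 26.7 and 51.6 CPM against 76.6 to 118 (−1.25, SE 0.29, edgeR adjusted p = 0.0040; limma adjusted p = 0.13). The higher genes were Cd44, Prom1, Sox9, Notum, Rnf43 and Cdk6. Cd44, a Wnt target and adhesion receptor, read 517 and 556 CPM against 27.2 to 47.5 (3.91, SE 0.23, edgeR adjusted p = 4.4e-07). Prom1 (CD133) read 622 and 721 CPM against 136 to 174 (2.11, SE 0.17), and Sox9 667 and 384 CPM against 110 to 155 (2.05, SE 0.27). Notum, a Wnt inhibitor, read 25.1 and 11.8 CPM against 0 to 0.564 (5.95, SE 1.14).

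Proliferation genes were called lower in 17 of 39 cases and higher in none (43.6% lower, against 26.1% of all genes). In both fits 3 were lower (7.69%, against 7.76% of all genes). The median was −1.18, with −3.03 without colon library 1 and −0.47 without colon library 2. Mki67, present in all cycling cells, read 85.2 and 20.2 CPM in colon and 57.2 to 107 in jejunum and did not pass the test (edgeR adjusted p = 0.33). The log2 difference of Mki67 was −1.96 without colon library 1 and 0.12 without colon library 2. Ube2c, of mitosis, was lower in both libraries (25.7 and 7.66 CPM against 163 to 211; −3.37, SE 0.36, edgeR adjusted p = 2.1e-05). Aurkb, a mitotic kinase, had 3 counts in colon and 29.4 to 38.9 CPM in jejunum. Myc, which drives growth, read 4.82 and 3.48 CPM against 35.3 to 42.4 (−3.16, SE 0.54). Among ribosomal protein genes 35 of 44 were called lower and none higher by edgeR (79.5% lower, against 26.1% of all genes). In both fits 23 were lower (52.3%, against 7.76%). Summed levels were 15526 and 9990 CPM in colon against 31143 to 39357. Rpl4 read 487 and 290 CPM against 2275 to 2804 (−2.66, SE 0.26), and Rps6 19.3 and 24.4 CPM against 169 to 237 (−3.20, SE 0.24).

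Barrier genes are a stated subject of the study, which assessed permeability. Cldn15, a claudin that forms sodium pores in the small intestine (chromosome 5, 136966616 to 136975858, plus strand), read 0.965 and 3.48 CPM in colon and 567, 614, 421 and 502 CPM in jejunum (log2 difference −8.14, SE 0.43, edgeR adjusted p = 2.3e-07; limma adjusted p = 0.0023). Cldn4, a sealing claudin, read 563 and 748 CPM against 54.6 to 169 (2.35, SE 0.37, edgeR adjusted p = 3.6e-04; limma adjusted p = 0.11). Cldn3 (263 and 187 CPM against 314 to 436) and Cldn7 (395 and 357 against 529 to 665) were called lower by edgeR, with log2 differences of −0.78 and −0.66, and not by limma (adjusted p = 0.17 and 0.16). The pore claudin Cldn2 (99.0 and 153 CPM against 126 to 197) and Cldn8 (6.43 and 6.27 against 2.14 to 8.83) did not pass the test, nor did Ocln, occludin (39.9 and 52.3 against 49.0 to 61.5; edgeR adjusted p = 0.33). Of 31 other junction genes 14 were called higher and 4 lower (45.2% and 12.9%, against 23.8% and 26.1% of all genes), 9 and 2 in both fits. Cgnl1 (paracingulin) read 216 and 169 CPM against 2.14 to 6.77 (5.74, SE 0.40, edgeR adjusted p = 1.4e-06), and Jup (plakoglobin) 259 and 261 CPM against 56.9 to 62.4 (2.13, SE 0.29). The scaffold Tjp3 was lower (25.7 and 20.9 CPM against 104 to 133; −2.30, SE 0.21, edgeR adjusted p = 7.7e-06). Tjp1 (ZO-1) read 196 and 47.4 CPM against 33.6 to 47.2, and its edgeR call (adjusted p = 0.0047) was lost without colon library 1 (log2 difference 0.25, edgeR adjusted p = 0.46).

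Immediate early genes, which respond to handling and growth signals within minutes, were higher in colon in 13 of 22 cases and lower in 1, which was Myc. The shares by edgeR were 59.1% and 4.55%, against 23.8% and 26.1% of all genes. In both fits 10 were higher and 1 lower (45.5% and 4.55%, against 11.7% and 7.76%). Ier3 read 902 and 502 CPM against 16.6 to 48.2 (log2 difference 4.62, SE 0.46, edgeR adjusted p = 1.5e-05), and Nr4a1 95.5 and 50.2 CPM against 4.27 to 9.19 (3.43, SE 0.48). The AP-1 member Fosl1 was low in all libraries (4.82 and 8.36 CPM against 0 to 1.35). Among NRF2 targets 4 of 29 were higher and 13 lower (13.8% and 44.8%, against 23.8% and 26.1% of all genes). Txn1 (thioredoxin) was lower in both colon libraries (222 and 281 CPM against 1806 to 1918; −2.90, SE 0.18, edgeR adjusted p = 5.0e-07), as was Nqo1 (6.75 and 20.9 CPM against 105 to 174; −3.43, SE 0.43), while the exporter Abcc4 was higher (156 and 105 CPM against 6.75 to 9.02; 4.10, SE 0.30). The small heat shock protein Hspb1 read 21.5 and 105 CPM against 2 counts in jejunum. The neutrophil-attracting chemokine Cxcl5 read 155 and 55.7 CPM against 0 to 1.24 (7.69, SE 0.94). In lipid metabolism, Scd1, a fatty acid desaturase, was lower (14.5 and 19.5 CPM against 139 to 231; log2 difference −3.50).

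Summed markers of most other cell types were higher in at least 1 colon library than in jejunum. The summed level of 16 fibroblast genes was 140 and 285 CPM in the colon libraries and 9.02 to 11.2 in jejunum; most of it was Fn1 (fibronectin, 107 and 169 CPM against 0 to 0.353), while Lum, Postn and Thy1 had no count in any of the 6 libraries. The 16 macrophage and dendritic cell genes summed to 157 and 86.4 CPM against 46.3 to 70.5. By edgeR 6 of 9 tested were called higher and 1 lower (66.7% and 11.1%, against 23.8% and 26.1% of all genes). Csf1r read 28.0 and 10.5 CPM against 0 to 1.69, and Fcer1g 25.1 and 51.6 CPM against 0 to 0.177, while the complement genes C1qa and C1qb had no count in colon. T cell markers summed to 3.54 and 6.97 CPM, with Cd3e, Cd8a and Cd4 at 0, and endothelial markers to 35.4 and 0 CPM, with Cdh5 and Tek at 0. Neutrophil markers summed to 36.7 and 97.5 CPM against 0 to 0.822. In library 2 all of it was Ltf (lactoferrin, also made by epithelia; 14.1 and 97.5 CPM against 0 to 0.177), and in library 1 S100a8, S100a9 and Cxcr2 had counts too, while Mpo, Elane and Camp were at 0 in both. B and plasma cell markers summed to 0.643 and 60.6 CPM against 1.77 to 2.82, with Ms4a1 and Igj present in colon library 2 and not in library 1. Enteric neuron and glia markers summed to 19 and 61.3 CPM against 4.22 to 5.65. By edgeR 4 of 7 tested were called higher (57.1%, against 23.8% of all genes), and none in both fits. Smooth muscle markers summed to 65.6 and 98.9 CPM against 89.6 to 125, with no member called by edgeR. The part of these cell types in the results above was not tested.

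**Figure D3:**
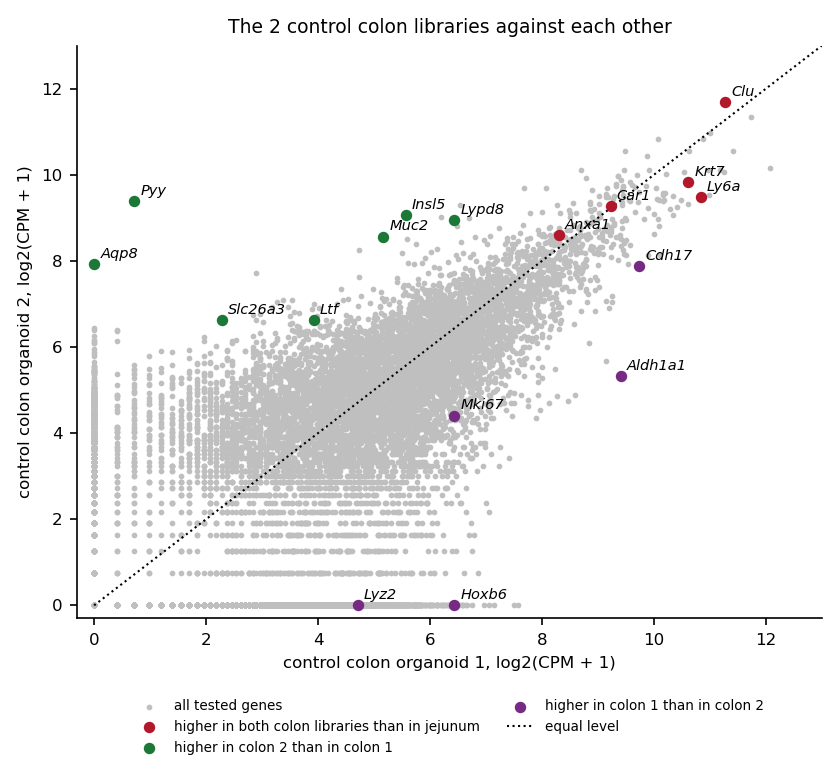
Level of every tested gene, as log2(CPM + 1), in control colon library 1 (horizontal axis) and library 2 (vertical axis), with named genes in color and the line of equal level dotted. Clu, Ly6a, Krt7, Anxa1 and Car1 lay near the line, Aqp8, Pyy, Slc26a3, Insl5, Muc2, Lypd8 and Ltf above it and Aldh1a1, Mki67, Hoxb6, Cdh17 and Lyz2 below it, and many genes at moderate levels in library 1 lay on the axis at 0 in library 2.

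The control and ethanol comparisons came from the same fits of the 12 organoid libraries, which share the spread and the gene filter. Their calls are therefore not independent of each other. In the ethanol organoids the levels themselves come from other libraries. There 45.9% of genes were called by edgeR, 25.6% higher and 20.3% lower, and limma with a spread per segment called 21.1%, 16.1% higher and 4.97% lower. Of the 1513 genes higher in both fits in control cultures, 1229 (81.2%) were also called higher in ethanol cultures and 1 was called lower. Of the 1003 lower, 693 (69.1%) were called lower and 12 higher. Car1 read 4652 and 7072 CPM in ethanol colon, Hoxb9 329 and 214, Ly6a 672 and 787 and Clu 2362 and 319, against jejunum means of 0.674, 0.114, 4.77 and 6.58 CPM. Fetal-like genes were called higher in 31 of 35 cases and Paneth genes lower in 25 of 33 there, so these groups stood apart in both sets of cultures.

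The size of the segment difference itself differed between control and ethanol cultures for 1218 genes (9.43%) by edgeR, 288 of them higher (2.23%) and 930 lower (7.2%) in the control comparison, and for 2 genes (0.0155%), both lower, by limma with a spread per segment. Ethanol colon libraries detected 13542 and 15383 genes and control colon libraries 9951 and 11780, and with all libraries thinned to 818240 counts outside Rn45s 13266 and 14176 against 9950 and 11512, so the part of library complexity in this difference cannot be told apart from treatment. Apob was at 61.5 and 80.5 CPM in ethanol colon, near the jejunum mean of 79.8, and at 0 in control colon (edgeR adjusted p of the difference = 4.4e-04). Guca2a was above jejunum in ethanol cultures (1045 and 818 CPM against a mean of 148) and below it in control cultures (edgeR adjusted p = 9.3e-04). Cldn7 did the same, at 2312 and 1920 CPM against a mean of 602 (edgeR adjusted p = 4.4e-04). Anxa1 and Krt7 were further above jejunum in control than in ethanol cultures (differences of 2.64 and 1.33 on the log2 scale, edgeR adjusted p = 0.0074 and 0.014).

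**Figure D4:**
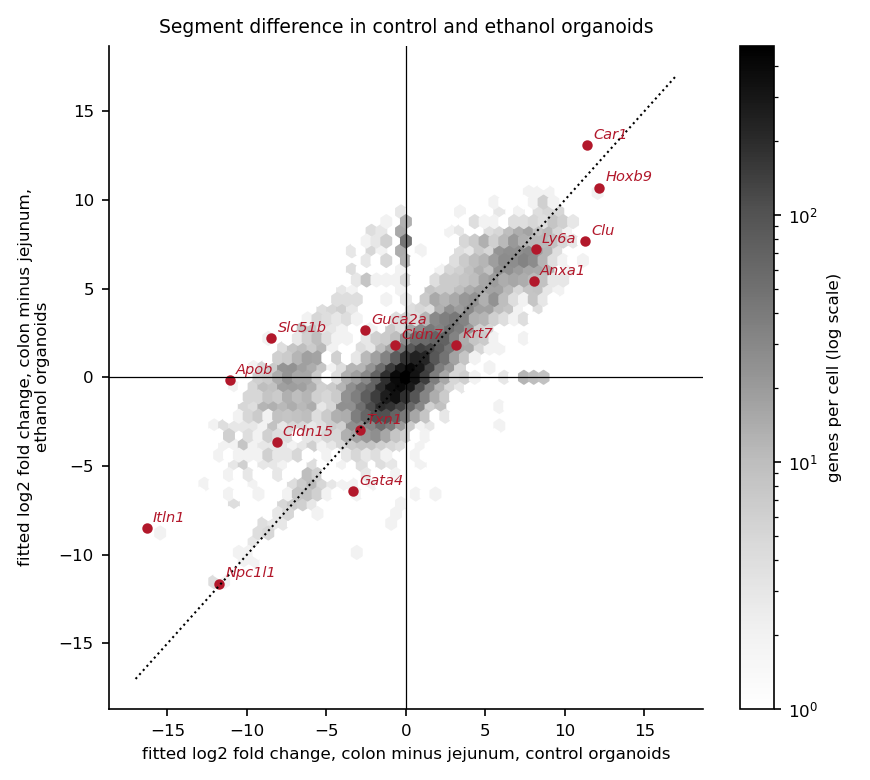
Fitted log2 difference of colon minus jejunum in control organoids (horizontal axis) and ethanol organoids (vertical axis) for 12922 genes, shaded by the number of genes on a log scale, with 15 genes marked and the line of equal difference dotted. Car1, Hoxb9, Clu and Ly6a were high in both, Itln1 and Npc1l1 low in both, and Apob and Slc51b were low in control cultures while near or above 0 or less low in ethanol cultures; fitted values of genes at 0 in a group are not bounds.

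Control whole tissue holds all layers of the gut. Of the 1513 genes higher in control colon cultures 26.2% were also called higher in colon tissue and 8.59% lower; of the 1003 lower, 25.7% were called lower and 23.8% higher, against 20.6% and 14.7% of all 14785 genes called higher and lower in tissue. The segment difference differed between cultures and tissue for 5984 genes (40.5%). The Paneth, digestive enzyme and Hox lists had the same direction in both: in tissue 25 of 34 Paneth genes and 19 of 20 brush-border enzymes were lower in colon, and 12 of 31 Hox genes were higher and 3 lower. Ribosomal proteins (19 of 44 higher, 2 lower in colon tissue) and proliferation genes (11 of 39 higher, 1 lower) had the opposite direction to the cultures. Fetal-like genes were higher in colon tissue in 12 of 36 cases and lower in 4, with Clu at a mean of 20.6 CPM in colon tissue and Ly6a at 114 CPM.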

How the data were processed

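QuantSeq 3′ mRNA libraries were made from organoids and tissue, per the labels' protocols. The submitters' processing notes name mm10, Trimmomatic 0.32, BWA, HTSeq, limma and edgeR, with no parameters; the strand setting of the counting is not stated there. The authors deposited raw counts per gene, which the main tests used, and a normalized table treated as a score, used as an alternative. Genes passing edgeR's filterByExpr were fitted with edgeR 4.0.16 (R 4.3.3) quasi-likelihood over the 12 organoid libraries, with TMM factors, Rn45s kept and Benjamini-Hochberg adjusted p under 0.05. Tissue came from a fit over all 27 libraries. Limma 3.58.1 (voom) gave colon and jejunum separate spreads, each over control and ethanol libraries together, and DESeq2 1.42.0 was an alternative. The scripts were tested on simulated data. The simulation gave control colon a smaller spread than measured over genes averaging 5 counts or more, and changed only well-counted genes. It does not cover calls that rest on few counts.

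The labels do not say whether libraries of a group came from separate cultures or animals beyond a donor number, so p-values measure the spread between these samples. Named genes were up to 10 per direction by the gap between groups with a mean of at least 20 CPM, up to 4 called members of each list and direction, and a panel; a few further members were named after their values were seen. The genes, lists and comparison were chosen with earlier results of these data known. Bounds rest on 3 counts per group. Some genes are not reported here.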

Additional observations from a re-analysis of the deposited data

Results flagged for a closer look

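Among the 4 control jejunum libraries, 1 library lay apart from the other 3 for 10 of 143 genes examined. Chance gives about 1 in 20 for normally distributed values. That rate does not apply to genes with counts in a single library, which the rule always flags (Insl5, Wnt7b, Gabrp, Hspb1 and Cyp1b1). The CPM of that library was Insl5 0.282, Saa1 1.06, Abcc3 56.9, Wnt7b 0.169, Gabrp 0.353, Cgnl1 6.77, Hspb1 0.337, Csf1r 1.69, Gcg 194 and Cyp1b1 0.986. Most of these genes are near 0 in jejunum, and the level of the library apart is then 1 or a few counts.

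The segment difference, colon minus jejunum on the log2 scale, differed between control and ethanol organoids for 33 of 151 genes examined (edgeR adjusted p under 0.05, tested as an interaction over all 12922 genes). It was more positive, or for Gata4 and Axin2 less negative, in control cultures for Gata4 3.06, Msln 4.34, Anxa1 2.64, Krt7 1.33, Axin2 1.51 and Nr4a1 2.77, given as control minus ethanol. It was less positive or more negative in control cultures for Epcam −1.73, Guca2a −5.21, Cdx1 −2.92, Cdx2 −0.94, Hnf4a −1.19, Sis −6.06, Enpep −6.70, Apoa1 −2.68, Nr1h4 −4.06, Ccl25 −3.55, Tff3 −2.73, Cldn15 −4.48, Cldn3 −1.62, Cldn7 −2.48, Nqo1 −2.25, Slc15a1 −4.15, Slc10a2 −5.89 and Slc51a −5.74. For genes with no count in control colon the fitted difference depends on the prior count, and it was Hoxa3 −7.67, Creb3l3 −9.39, Amn −8.38, Apob −10.91, Ces1f −9.08, Slc51b −10.67, Itln1 −7.79, Klk1 −8.15 and Gm10104 −6.63. With a spread per segment, limma-voom called 2 of all 12922 genes for this difference. The part of the lower complexity of the control colon libraries in these differences was not tested.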

How the results depend on the processing

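The count of genes that differed between control colon and jejunum cultures (6436, with 3069 higher and 3367 lower) stayed within 1.5 times under DESeq2, RLE factors, limma-voom, no count filter and Rn45s left out (6473 to 6750). It moved to 3896 (1399 higher) with a mean of at least 50 counts, to 3880 (1892 higher, 1988 lower) when tested against a log2 difference of 1, to 2538 (1529 higher, 1009 lower) in limma-voom with a spread per segment, to 1032 (854 higher, 178 lower) with a spread per group, an alternative chosen after seeing the data, and to 3127 (1803 higher, 1324 lower) in limma on the deposited normalized table, which holds fewer genes. The 6 control libraries alone gave 1892 higher. A replicate block by donor number gave 1831 higher, and donor number within treatment gave 1064 genes (340 higher, 724 lower). The deviations of same-numbered colon and jejunum libraries from their group means correlated at 0.032 and 0.080. With 2 colon libraries these deviations mirror each other, so the values cannot show whether the numbers pair the libraries. The block gave 416 genes for the control against ethanol difference (main 1218) and 3711 in ethanol cultures (main 5928), where a spread per segment, also chosen after seeing the data, gave 2 and 2726. Leaving out 1 library at a time gave 5406 to 8512 genes in control cultures (2518 to 3665 higher, 2875 to 4979 lower), 721 to 4810 for the control against ethanol difference (4810 without control colon 1, 3240 without control colon 2), 4163 to 5061 in ethanol cultures, 3913 to 5003 in tissue and 5313 to 7039 for cultures against tissue.

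The log2 difference of 19 named genes changed sign under some setting. The ranges on leaving out 1 library at a time were Aldh1a1 −3.17 to 0.95, Aqp8 −5.06 to 8.25, Car4 −5.69 to 4.73, Cdh17 −1.41 to 0.46, Clca3 −3.20 to 0.71, Cldn2 −0.62 to 0.012, Cldn8 0.049 to 0.69, Cyp1b1 −3.39 to 9.73, Cyp2c55 −0.996 to 0.88, Gcg −1.45 to 1.26, Hoxb6 −2.52 to 9.18, Krt20 −0.97 to 1.18, Lgr5 −0.47 to −0.11, Lyz2 −4.52 to 5.42, Mki67 −1.96 to 0.12, Muc2 −1.48 to 1.96, Pyy −4.26 to 5.71, Slc10a2 −6.36 to 1.96 and Zg16 −1.36 to 0.84. In limma-voom it was −0.41 for Zg16, −0.65 for Aldh1a1, −0.28 for Cyp2c55, −0.32 for Gcg and −0.043 for Krt20. With a spread per segment it was −0.36 for Zg16, −0.74 for Aldh1a1, −0.21 for Cyp2c55, −0.26 for Gcg and −0.00030 for Krt20. With a spread per group it was −0.36 for Zg16, −0.74 for Aldh1a1, −0.20 for Cyp2c55 and −0.26 for Gcg. On the deposited normalized table it was −0.061 for Pyy, 0.044 for Lgr5, 0.0051 for Cldn2, −0.17 for Aldh1a1 and 0.0079 for Cdh17. With the replicate block it was −0.040 for Zg16, −0.17 for Cyp2c55 and −0.14 for Cldn8. With the replicate block within treatment it was −0.24 for Zg16, −0.46 for Aldh1a1, −0.43 for Cyp2c55 and −0.25 for Gcg. In the 6 control libraries alone it was −0.014 for Aldh1a1. Without Rn45s it was −0.020 for Aldh1a1. For all of these but Cldn8 and Lgr5 the sign turned when 1 of the control colon libraries was left out. The cause was not tested.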
